A study of Mus musculus with 23 samples.

Results

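Myelin is the lipid-rich sheath that oligodendrocytes wrap around axons in the brain. The set described here holds 9 genes of that sheath and of the cells that make it, namely Mbp, Mog, Mag, Mobp, Cnp, Mal, Cldn11, Ugt8a and Car2. The members were chosen by gene symbol, and all 9 were found on the array, with 15 of its 12422 non-control probe sets. A probe set is a group of short probes that together give 1 signal for a transcript. Mobp had 4 probe sets, Mbp, Mag and Cldn11 had 2 each, and the other genes had 1 each.

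The samples were whole hippocampi of male mice of the C57BL/6JNIA strain, with 14 animals aged 15 months and 9 aged 2 months. All carried no allele or drug named in the labels, and both ages went through Morris water maze training, in which a mouse learns to find a platform in a pool. Each array is named a biological replicate in the labels and is taken here as 1 mouse, and its values are MAS5 signals on a linear scale. Running numbers in the titles fall in separate ranges for the ages, so age and any order of handling cannot be told apart. Array medians spanned 154 to 188, and the lowest and highest correlations of 2 arrays (log2) were 0.943 and 0.983. Of the 9 hippocampal neuron markers 7 had a probe set bright enough to be tested, among them Nrgn, Camk2a, Neurod1 and Neurod6, and their mean log2 signal was 9.67 to 10.06 at 15 months and 9.81 to 10.10 at 2 months. In whole tissue, fewer oligodendrocytes and less RNA per oligodendrocyte cannot be told apart.

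Oligodendrocytes mature from progenitors under the transcription factors Sox10 and Myrf, which drive the genes of the sheath. Compaction of the membrane layers depends on myelin basic protein (Mbp), while Mag lies on the innermost layer facing the axon and Mog on the outermost. The hippocampus holds myelinated fibres in its white matter, the alveus and fimbria, and within its cell layers.

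None of the 8 tested myelin genes passed the adjusted test between 15 and 2 months, and Cnp was too dim to be tested. Of the 13 myelin probe sets bright enough to be tested, 0 passed at a false discovery rate of 0.05 in limma, against 28 of all 7453 tested (0.376%), made up of 25 above 0 (0.335%) and 3 below (0.0403%). Mbp, on its brighter probe set, averaged 5376 ± 803 at 15 months and 5334 ± 1227 at 2 months (SD, n = 14 and 9). Its log2 difference in limma corresponded to a ratio of 1.02, with a 95% interval of 0.885 to 1.17. At an unadjusted p under 0.05, 2 of the 13 had log2 differences below 0, Mog and Ugt8a, and 0 above, against 924 of the 7453 in either direction (12.4%), 439 above 0 (5.89%) and 485 below 0 (6.51%). The 13 adjusted p-values lay between 0.305 and 0.927. In none of the 13 did the ages separate without overlap, against 4 of the 7453 (0.0537%).

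The median log2 difference (15 months minus 2 months) of the 13 probe sets was -0.08, against -0.02 over all tested probe sets. Without 2-month replicate 9 the median of the 13 was -0.03, and it was -0.12 when the 4 arrays whose 99th percentile was lowest were left out. Differences below 0 were found for 9 of the 13, and for 55% of all tested. The differences ran from -0.40 for Ugt8a to 0.19 for Mobp, and the distance from the estimate to the end of its 95% interval had a median of 0.21. The intervals of the 13 together reached from -0.78 to 0.43. All log2 values here are of signal + 16, which understates differences of dim probe sets such as that of Ugt8a.

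The stretches before 3 of the genes are shown because the brightest probe sets of these genes had the highest median correlations with the other members between mice (0.59 for Mog, 0.59 for Mag and 0.54 for Mobp). The RefSeq promoter table of GRCm38.p6 held 7 of the 9 genes, all but Mbp and Car2. Each line gives the 250 bases before the gene's start, 5′ to 3′ on the gene's strand. That of Mobp is chr9:120149492-120149741 on the plus strand, that of Mag chr7:30914864-30915113 on the minus strand at 1 of its 3 listed starts, and that of Mog chr17:37023399-37023648 on the minus strand. Capitals mark the letters of 2 motifs on either strand, ACAAAG or ACAATG for the SOX family and CTGGCAC or CTGGTAC for Myrf, which do not overlap each other here.
Mobp: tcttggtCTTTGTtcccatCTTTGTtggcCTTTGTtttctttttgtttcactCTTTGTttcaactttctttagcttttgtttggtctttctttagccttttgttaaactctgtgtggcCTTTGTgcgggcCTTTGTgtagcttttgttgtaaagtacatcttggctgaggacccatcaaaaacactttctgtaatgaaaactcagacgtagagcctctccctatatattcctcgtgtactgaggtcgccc
Mag: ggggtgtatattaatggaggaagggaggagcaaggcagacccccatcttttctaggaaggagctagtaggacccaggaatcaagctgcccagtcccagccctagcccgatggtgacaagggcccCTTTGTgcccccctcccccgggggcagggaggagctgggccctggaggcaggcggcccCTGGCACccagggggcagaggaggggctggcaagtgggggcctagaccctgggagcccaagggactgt
Mog: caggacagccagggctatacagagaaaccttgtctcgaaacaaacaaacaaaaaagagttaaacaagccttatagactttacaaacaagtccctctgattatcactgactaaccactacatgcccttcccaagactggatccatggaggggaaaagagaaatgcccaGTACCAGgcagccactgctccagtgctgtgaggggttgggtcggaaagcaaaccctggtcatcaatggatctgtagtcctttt
The Mobp stretch held 6 SOX matches and no Myrf match, the Mag stretch 1 of each, and the Mog stretch 1 Myrf match at 83 bases before the start and no SOX match. Among all 32851 stretches of the same length in the table, 25.2% held at least 1 SOX match, 7 held 5 or more (0.0213%), and 5.93% held a Myrf match. The 7 include the Mobp stretch itself, which is rich in T and repeats similar letters, and no test was made on that share. Over the 9 listed starts of the 7 genes, 4 held a SOX match and 4 a Myrf match, in Mobp, Mag and Cnp for SOX and in Mag, Mog and Cnp for Myrf. In each count 2 are starts of Mag whose stretches overlap and share the same match, so each motif was found in 3 genes. These are matches of letters, not sites shown to be bound.

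Among the genes of compact myelin, Mbp encodes the protein that holds the cytoplasmic faces of the membrane together. Its brighter probe set had a lowest, median and highest signal of 4265, 5259 and 7133 at 15 months, against 3948, 5187 and 8066 at 2 months. The ages overlapped over nearly their whole range, and the log2 difference was 0.03 ± 0.10 (SE; limma adjusted p = 0.927), with a sign that turned when single mice were left out (-0.02 to 0.11). Its dimmer probe set was at 563, 633 and 963 at 15 months, against 517, 711 and 1129 at 2 months, and its log2 difference was -0.10 ± 0.12 (limma adjusted p = 0.781). The Mbp gene also gives rise to longer golli transcripts, and which transcripts each probe set reads was not analysed here.

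Mobp encodes a small, abundant protein of the same cytoplasmic layer. Its brightest probe set was at 4586, 6903 and 9245 at 15 months, against 4305, 5543 and 9001 at 2 months (lowest, median and highest). Of the 14 older mice, 11 had a log2 signal over the mean log2 signal of the young, yet 12 lay below the highest 2-month mouse. The log2 difference was 0.19 ± 0.12 (limma adjusted p = 0.529). In order of brightness, the other 3 probe sets of Mobp had log2 differences of -0.07, 0.09 and 0.07, with limma adjusted p from 0.815 to 0.841, so the 4 did not share a sign.

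Mal and Cldn11 encode membrane-spanning proteins, Mal a proteolipid of membrane sorting and Cldn11 the claudin that seals the tight junctions between myelin layers. Mal was at 899, 1130 and 1751 at 15 months, against 886, 1287 and 1371 at 2 months. Both ages overlapped, and the highest 2 mice of all were of 15 months. The log2 difference of Mal was -0.10 ± 0.10 (limma adjusted p = 0.714). Cldn11, on its brighter probe set, was at 552, 650 and 964 at 15 months, against 506, 750 and 881 at 2 months, a log2 difference of -0.09 ± 0.10 (limma adjusted p = 0.729) with the ages overlapping. A dimmer Cldn11 probe set was too dim to be tested with the others, at 44.3 ± 14.8 at 15 months and 58.6 ± 10.0 at 2 months (SD, n = 14 and 9). Its log2 difference in a fit without the brightness filter was -0.33 (95% interval -0.63 to -0.03, limma adjusted p = 0.467), with 10 of 14 mice of 15 months below the lowest 2-month mouse.

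**Figure D1:**
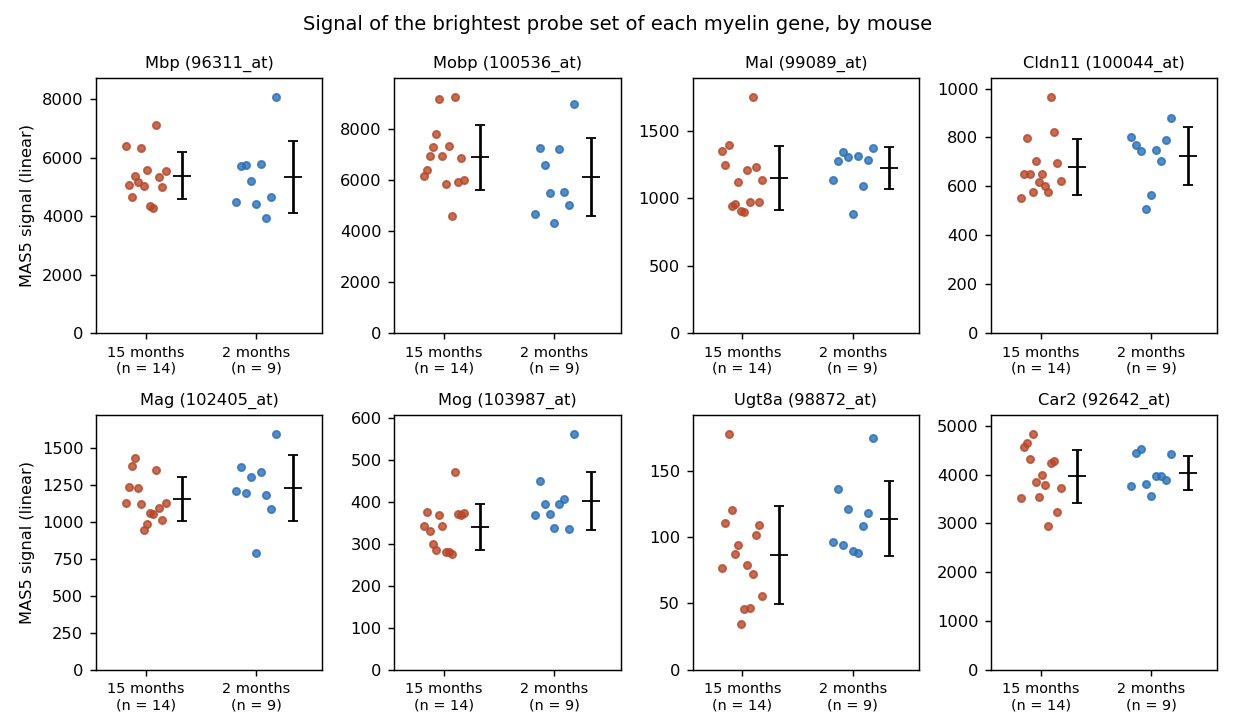
MAS5 signal (linear axis from 0) of the brightest probe set of each of the 8 myelin genes that were tested, with 1 point per mouse, 15 months left of 2 months, and the mean ± SD beside the points. The ages overlap in all 8 genes, and Mog and Ugt8a have the most 15-month mice below the lowest 2-month mouse, 6 and 8 of 14.

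Of the proteins at the surfaces of the sheath, myelin-associated glycoprotein (Mag) binds the axon, and myelin oligodendrocyte glycoprotein (Mog), a marker of mature sheaths, lies outermost. Mog was at 276, 342 and 471 at 15 months, against 334, 395 and 561 at 2 months. Of the 14 mice of 15 months, 6 were below every 2-month mouse and 1 was above the 2-month mean. The log2 difference was -0.23 ± 0.09, a ratio of 0.853 with a 95% interval of 0.747 to 0.973 (limma p = 0.020, adjusted p = 0.305). Mag was at 948, 1125 and 1432 at 15 months, against 787, 1206 and 1594 at 2 months, so the 2-month mice held both extremes. Its log2 difference was -0.08 ± 0.09 (limma adjusted p = 0.766), and that of its dimmer probe set was -0.14 ± 0.12 (limma adjusted p = 0.688).

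Cnp, the 2',3'-cyclic nucleotide phosphodiesterase of uncompacted myelin, is abundant in oligodendrocytes, but its only probe set was dim on all arrays. It was at 5.1, 15.7 and 84.3 at 15 months, against 9.0, 17.6 and 42.3 at 2 months. These lie below the brightness filter, at a signal of 91.7, so Cnp gives no measure of its transcript here and was not tested with the others.

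Of the enzymes, Ugt8a makes galactosylceramide, the typical glycolipid of myelin. Its signal was at 34.7, 83.3 and 178 at 15 months, against 87.8, 108 and 175 at 2 months. Of the 14 mice of 15 months, 8 were below every 2-month mouse, while the single highest mouse was also of 15 months. The log2 difference was -0.40 ± 0.18, a ratio of 0.757 with a 95% interval of 0.583 to 0.984 (limma p = 0.0385, adjusted p = 0.372). Ugt8a passed the brightness filter only just, at the 40th percentile, and its SD on the log2 scale was 0.52 at 15 months and 0.29 at 2 months. Car2, the carbonic anhydrase II of oligodendrocytes, is also made by red blood cells and the choroid plexus. It was at 2939, 3918 and 4832 at 15 months, against 3559, 3969 and 4523 at 2 months, with 3 of the older mice above and 4 below the whole 2-month range. Its log2 difference was -0.04 ± 0.07 (limma adjusted p = 0.868), the narrowest interval of the set, -0.19 to 0.11. The red blood cell marker Hba-a1 had a log2 difference of 0.13 ± 0.11 (limma adjusted p = 0.681), and its part in the signal of Car2 was not tested.

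**Figure D2:**
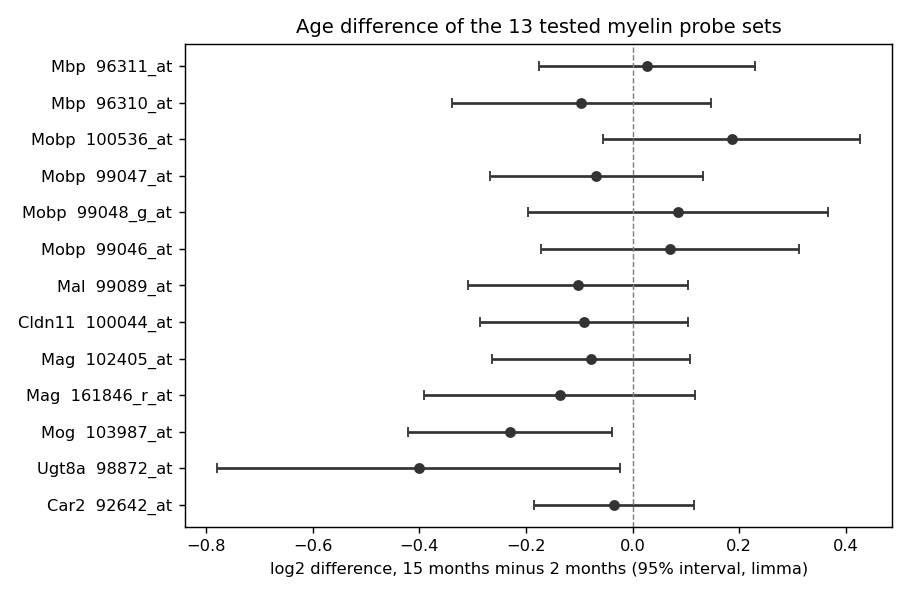
Log2 difference between 15 and 2 months with its 95% interval from limma for the 13 tested myelin probe sets, grouped by gene. All intervals but those of Mog and Ugt8a include 0, and none passed after adjustment over 7453 probe sets.

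Correlations between the myelin genes from mouse to mouse were mostly above 0, and few passed their test. Each gene was taken at its brightest tested probe set, which leaves 8 genes and 28 pairs at each age. At 15 months 27 of the 28 pairs had a Pearson r above 0, with a median of 0.40 (Spearman 0.30, n = 14), but 0 passed a permutation test after adjustment over the 28. At 2 months all 28 were above 0, with a median of 0.67 (Spearman 0.48, n = 9), and 4 passed the exact permutation test on Pearson's r and 2 on Spearman's rho. Without the 2 mice farthest from the median of the first gene of a pair, the median r was 0.28 at 15 months, with 18 of 28 pairs above 0, and 0.61 at 2 months, with 24 above 0. Leaving out 2-month replicate 9 alone moved the 2-month median to 0.47. No share over pairs of other genes is given beside these counts, so they describe the 28 pairs alone. Whether the correlations differ between the ages was not tested.

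Mog and Mobp, on opposite faces of the membrane, were the closest pair at 2 months, with r = 0.883 (exact permutation adjusted p = 0.0204) and rho = 0.883 (exact permutation adjusted p = 0.0431), and r = 0.833 without the 2 farthest mice. Mbp and Mobp had r = 0.881 at 2 months (exact permutation adjusted p = 0.0257) and rho = 0.783 (exact permutation adjusted p = 0.0804), and r = 0.974 without the 2 farthest mice. At 15 months the closest pair was Mog and Cldn11, with r = 0.683 (permutation p = 0.00685, adjusted p = 0.0656) and rho = 0.579 (permutation p = 0.0328, adjusted p = 0.236), but r = 0.373 without the 2 farthest mice, so that this value rests largely on those mice.

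The probe sets of 1 gene did not always follow each other. The 4 probe sets of Mobp correlated at 0.14 to 0.65 with each other at 15 months and at 0.68 to 0.84 at 2 months. Of 18 such comparisons over all genes, 5 passed in a permutation test on Pearson's r after adjustment, all of Mobp, and 0 on Spearman's rho. Mbp's pair had an r of -0.36 among mice of 15 months (permutation p = 0.212, adjusted p = 0.239; rho = -0.21) and of -0.48 among those of 2 months (exact permutation p = 0.186, adjusted p = 0.239; rho = -0.63). Mag's pair had an r of -0.58 among mice of 15 months (permutation p = 0.0305, adjusted p = 0.060; rho = -0.68) and of -0.17 among those of 2 months (exact permutation p = 0.674, adjusted p = 0.674; rho = -0.12). Without the 2 farthest mice these were -0.24 and -0.25 for Mbp, and -0.53 and 0.30 for Mag. Those of Mobp were then 0.01 to 0.66 at 15 months and 0.22 to 0.57 at 2 months. With the other 7 genes, over 23 mice and with the mean of each age removed, the dimmer probe set of Mbp had a median r of -0.28 and the brighter one of 0.50. The dimmer probe set of Mag had a median r of -0.10 and the brighter one of 0.59.

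**Figure D3:**
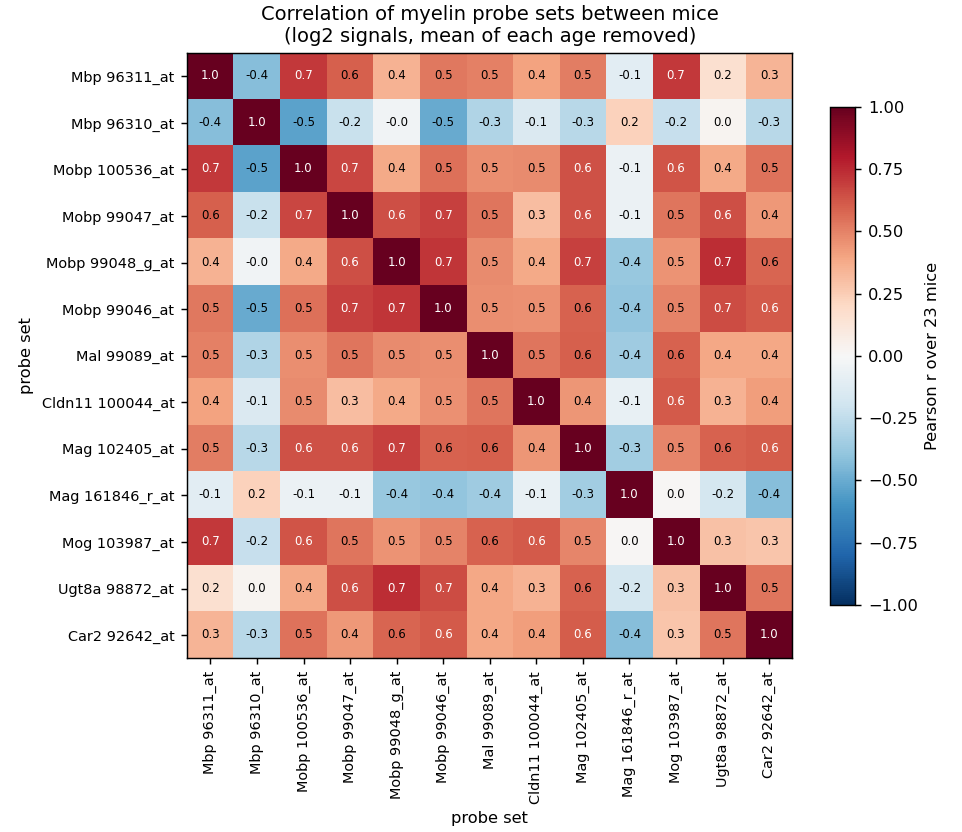
Pearson correlation between the 13 tested myelin probe sets over 23 mice, on log2 signals with the mean of each age removed, grouped by gene. The dimmer probe sets of Mbp and Mag stand out with values mostly below 0, and the other probe sets correlate above 0 with each other.

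The mean log2 signal of the 8 genes was 9.89, 10.23 and 10.57 at 15 months, against 9.98, 10.27 and 10.74 at 2 months (lowest, median and highest), with an SD between mice of 0.18 and 0.21. The 2-month replicate 9 was the highest of all mice and stood above the median of its age in 8 of 8 genes, and 2-month replicate 5 in 0 of 8. At 15 months the ends were replicate 11, above the median of its age in 7 of 8 genes, and replicate 10, in 0 of 8. The mean of 12 other genes of mature oligodendrocytes was 10.08 in 15-month replicate 11 and 9.85 in replicate 10, and 10.07 in 2-month replicate 9 and 9.59 in replicate 5. The choroid plexus list mean was 9.78 in 15-month replicate 11 and 7.51 in replicate 10, and 8.73 in 2-month replicate 9 and 6.96 in replicate 5. Yet the highest choroid plexus mean of all mice, 10.79, was in 15-month replicate 7. The myelin mean of that mouse was 10.01, rank 13 within its age. The part of the choroid plexus in these differences was not tested. The 25th percentile of the array was 40.2 in 15-month replicate 11 and 34.6 in replicate 10. It was 38.1 in 2-month replicate 9 and 33.5 in replicate 5. Over all arrays it was 30.2 to 53.4, the last in 15-month replicate 13, and its part was not tested either.

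**Figure D4:**
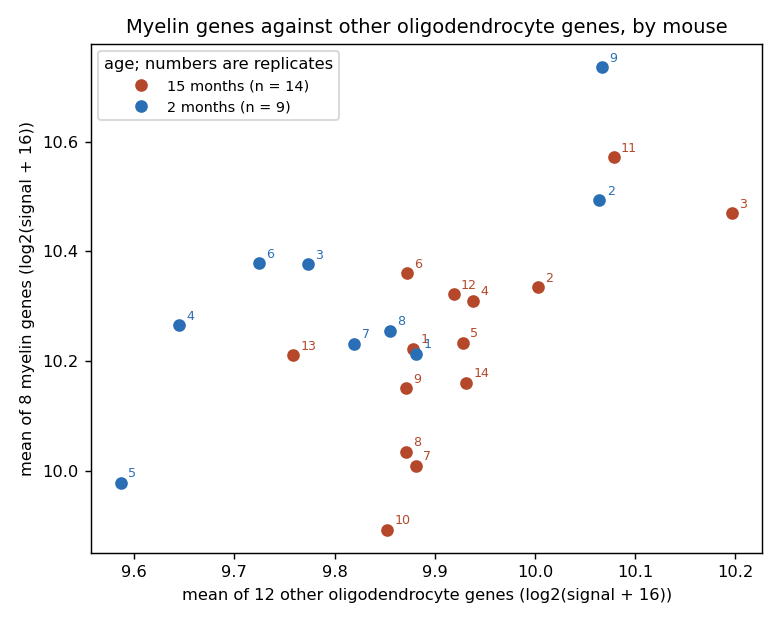
Mean log2(signal + 16) of the 8 myelin genes (vertical) against that of 12 other genes of mature oligodendrocytes (horizontal), 1 point per mouse, labelled by replicate within its age. The highest point is 2-month replicate 9 (10.74 and 10.07) and the lowest 15-month replicate 10 (9.89 and 9.85).

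Of 5672 other genes, those whose level between mice was most like the mean of the 8 myelin genes were Anln, Septin4, Hsd17b10, Evi2a, Bdnf, Mnat1, Piga, Kif5b, Josd2 and Gatm. Likeness was Pearson's r over 23 mice with the mean of each age removed, and since these are the highest of 5672 values they are given as a description. Anln, which encodes the septin-binding scaffold anillin, had an r of 0.82, with 0.83 at 15 months and 0.82 at 2 months. Septin4, a cytoskeletal septin found in myelin, had an r of 0.80. Evi2a, a membrane protein gene of oligodendrocytes, was at 0.71 and Gatm, the first enzyme of creatine synthesis, at 0.66. The others were at 0.67 to 0.74, among them Bdnf, a neurotrophin, Kif5b, a kinesin motor, and Hsd17b10, a mitochondrial dehydrogenase. With Cnp added to the mean, a choice made after its dim signal was seen, 6 of these 10 stayed among the first 10. The 12 mature oligodendrocyte genes had a median r of 0.43, against 0.00 over all ranked genes, and 6 of them stood among the first 100, Septin4, Evi2a, Gatm, Lpar1, Ndrg1 and Cryab. Not all did so, since Cd9, a tetraspanin, had an r of -0.02.

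Anln had the largest age difference of these 10. It averaged 501 ± 109 at 15 months and 359 ± 93.5 at 2 months, and its log2 difference of 0.47 ± 0.12 did not pass (limma adjusted p = 0.104).

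The other genes of the oligodendrocyte lineage also held 0 that passed, in the 12 mature genes, 7 regulators and 3 progenitor genes tested, against 0.376% of all tested probe sets. The mature genes had a median log2 difference of 0.09, with 9 of 12 above 0. Their lowest p-values were those of Gatm, at 2478 ± 358 at 15 months and 2065 ± 221 at 2 months (log2 difference 0.25 ± 0.08, limma adjusted p = 0.166), and of Apod, a lipid-binding apolipoprotein, at 3315 ± 761 and 2452 ± 754 (0.46 ± 0.15, limma adjusted p = 0.214). The regulators had a median of -0.06. Sox10, the main activator of myelin genes, averaged 554 ± 121 at 15 months and 620 ± 104 at 2 months (-0.17 ± 0.11, limma adjusted p = 0.547). Id2, an inhibitor of differentiation, had a log2 difference of 0.15 (limma adjusted p = 0.461) and Myrf one of -0.07 (adjusted p = 0.811). Among progenitor genes, Ptprz1, a phosphatase gene also expressed by astrocytes, had a log2 difference of 0.28 ± 0.11 (limma adjusted p = 0.255), Vcan, a matrix proteoglycan, one of -0.13 (adjusted p = 0.673) and Pdgfra, the growth factor receptor of progenitors, one of 0.02 (adjusted p = 0.959).

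With the mean of the 12 mature oligodendrocyte genes as a covariate, 12 of the 13 myelin probe sets had log2 differences below 0, against 56.1% of all tested, and their median was -0.12. At an unadjusted p under 0.05 there were 5 (Mog, Ugt8a, Mag, Cldn11 and Mal), against 10.3% of all tested, and 0 passed after adjustment, the lowest adjusted p being 0.209. In this fit Mog had a log2 difference of -0.32 (95% interval -0.50 to -0.13) and Mag one of -0.20 (-0.35 to -0.04). Of the 12 genes in the covariate, 9 had differences above 0, among them Gatm and Apod, and the median of the 12 was 0.09. A covariate that is higher at 15 months lowers the fitted differences of genes that vary with it in the same direction. The dimmer probe sets of Mbp and Mag moved the other way, to -0.06 and -0.11, from -0.10 and -0.14 without the covariate. The part of the covariate in these differences was not tested, and no fall of the myelin genes is read from this fit.

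Of 13 genes of myelin lipid metabolism 0 passed, with a median log2 difference of 0.05. Scd1, a stearoyl-CoA desaturase, averaged 3358 ± 429 at 15 months and 2729 ± 375 at 2 months (log2 difference 0.30 ± 0.08, limma adjusted p = 0.0830). On the log2 scale 14 of 14 older mice were over the young mean. Over the alternatives its adjusted p (limma or a rank test) ran from 0.0217, without 2-month replicate 6, to 0.264. Degs1, the dihydroceramide desaturase, had a difference of 0.17 ± 0.06 (limma adjusted p = 0.255). Of 7 genes of the axon domains that border myelin, such as nodes of Ranvier, 0 passed, with a median of -0.09. Ank3, the ankyrin of the node and axon initial segment, had a difference of 0.26 ± 0.09 (limma adjusted p = 0.209), and Nrcam, a cell adhesion protein of the node, one of -0.16 ± 0.08 (limma adjusted p = 0.398).

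**Figure D5:**
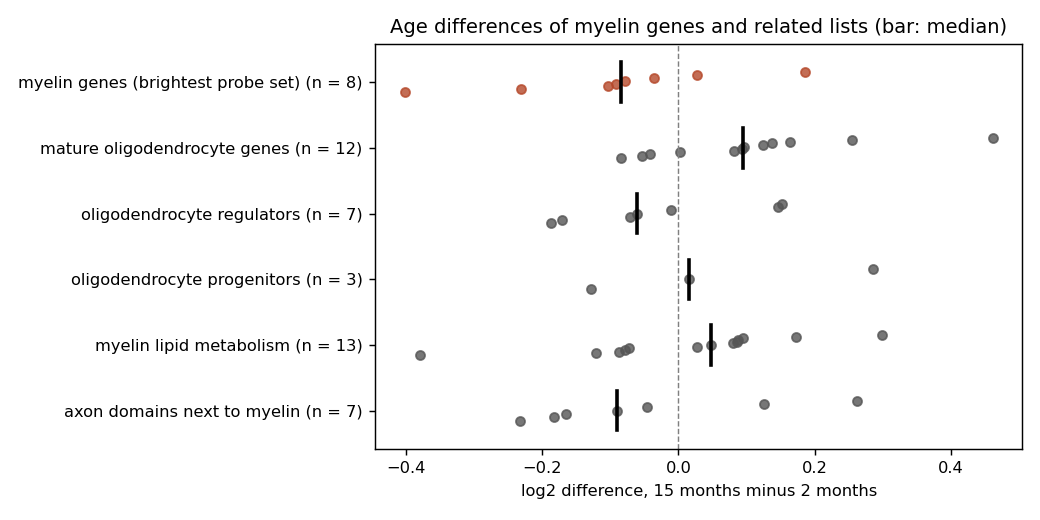
Log2 difference between 15 and 2 months of each tested gene in the myelin set and in 5 related lists, with a bar at the median of a list. The myelin genes have a median of -0.08 and the mature oligodendrocyte genes one of 0.09, and none of the genes shown passed the test.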

How the data were processed

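Whole hippocampus RNA was hybridised to 1-colour arrays. Per the submitters' processing notes, MAS5 produced the deposited intensities. Its version, like its settings, was not given in the sources used here. Trimmed means (2% off both ends) came to 499.9 throughout, so no further scaling was applied. The number of arrays limits the precision, and scanner files were not used here.

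Gene symbols came from the platform annotation, where 10833 of 12422 probe sets have 1 symbol, 396 several and 1193 none, and 66 control probe sets were left out. log2(signal + 16) was compared between the ages with limma 3.58.1 in R 4.3.3 (lmFit, eBayes with trend and robust variance, two-sided), over 7453 probe sets whose mean was above the 40th percentile, with Benjamini-Hochberg adjustment. The test was also tested on simulated data, with the mean and SD of each probe set. It called 8 of 50 probe sets shifted by 0.25 on the log2 scale (16%) and 36 of 50 shifted by 0.5 (72%). Of those shifted by 1 it called 48 of 50 (96%), and of those not shifted 4 of 7253 (0.0551%). Most shifts of 0.25 were thus missed. Correlations between mice used two-sided permutation tests, exact for 9 mice (362880 permutations) and with 100000 permutations for 14, run under Python 3.11.15 (scipy 1.17.1, numpy 2.4.6). Tables used pandas 2.3.3 and plots matplotlib 3.10.9.

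The members and gene lists were chosen with earlier results of these data known. The text names all members and, of each list of oligodendrocyte, lipid and axon genes, those past the threshold or else the 2 of lowest p. Of the lists of other cells it names those past the threshold, with Pmp22 and Hba-a1 beside them. Sox10 is also named, as are the 10 genes most like the myelin mean. Cnp was left out of that mean because its probe set was below the filter, while Myrf, Pdgfra, Cd9, Lpar1, Ndrg1, Cryab and the hippocampal neuron markers were named after their values were seen. Alternatives were other pseudocounts, filters, scalings, tests, weights and covariates, and arrays or mice left out.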

Additional observations from a re-analysis of the deposited data

Results flagged for a closer look

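In the 9 mice of 2 months, the signal of the third brightest Mobp probe set in replicate 9 was 2915.2, against 1769.1 in the next mouse. On the log2 scale this gap was 0.622 of the whole range, beyond Dixon's 95% critical value for 9 samples. Chance passes that critical value in about 1 in 20 groups, and 16 sets of values were examined. The same mouse was the highest of its age in the mean of the 8 myelin genes, at 10.74.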

How the results depend on the processing

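In each alternative 0 of the myelin probe sets passed, and their adjusted p-values lay between 0.200 and 0.9999. The count of all probe sets that passed was 60 with the 25th percentile of each array as a covariate, against 28, and 20 to 39 when single mice were left out. The median log2 difference of the myelin probe sets ran from -0.10 to -0.03 when single mice were left out, the last without 2-month replicate 9, and was -0.12 both without 4 arrays (the set listed with Mbp) and with the mature oligodendrocyte covariate. Signs turned for 5 probe sets, in 14 of 507 values, all far from the threshold. The brighter Mbp probe set was at -0.0177 with the 99th percentile covariate, -1.7e-05 with the choroid plexus covariate, -0.0394 with the mature oligodendrocyte covariate, -0.0390 without the 4 arrays of lowest 99th percentile (15-month replicates 3 and 12 and 2-month replicates 7 and 8), and -0.0346 as the mean of both Mbp probe sets. It ran from -0.0231 to 0.105 when single mice were left out, being below 0 without 15-month replicate 11 or 2-month replicate 1, 5 or 7. The dimmest and the third brightest Mobp probe sets were at -0.0569 and -0.0890 with the mature oligodendrocyte covariate, and the third brightest at -0.0345 without the 4 arrays. The second brightest ran from -0.110 to 0.00367 when single mice were left out, being above 0 without 2-month replicate 9. Car2 was at 0.00687 without the 2 arrays of lowest correlation with the others (15-month replicate 13 and 2-month replicate 3). The causes were not tested. The median correlation between myelin genes at 2 months was 0.48 with Spearman's rho, against 0.67, and 0.47 to 0.72 when single mice were left out, the lowest without replicate 9. At 15 months it was 0.29 to 0.45. No paired analysis was possible because each array is taken as 1 mouse, measured at 1 age only. Dim signals limit Cnp, Ugt8a and the second probe set of Cldn11.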

Other observations

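Markers of other cells give the setting of these values. Of 9 microglia markers 4 rose at 15 months in limma (Ctss, Ly86, C1qb and C1qc), with a median log2 difference of 0.31, of 7 astrocyte markers S100b rose (0.43 ± 0.09, adjusted p = 0.0128), and of 6 endothelial markers Slc2a1 rose (0.55 ± 0.12, adjusted p = 0.0220). Over all 7453 tested probe sets, 25 rose (0.335%) and 28 passed in either direction (0.376%). Calls of C1qc, S100b and Slc2a1 were lost in some alternatives, with adjusted p (limma or a rank test) up to 0.0649, 0.0571 and 0.0950. None passed of 7 neuron markers (median -0.07), 7 of hippocampal neurons (-0.08), 3 of the choroid plexus (0.77), 6 of the meninges (0.24), 5 of thalamus, habenula and striatum (-0.23), 1 of red blood cells (0.13) and 2 of Schwann cells, the myelinating cells of peripheral nerve. Pmp22, a myelin protein of Schwann cells that other cells also make, averaged 311 ± 53.4 at 15 months and 237 ± 42.5 at 2 months (0.37 ± 0.11, limma adjusted p = 0.145). The choroid plexus mean ranged from 7.00 to 10.79 at 15 months and from 6.44 to 10.65 at 2 months.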
